A study of Mus musculus with 20 samples.

Results

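Genes that carry fatty acids from the capillary across the endothelium of the heart were followed in left ventricular tissue of 20 male mice fed 4 diets. The group was defined as a list of 9 genes, Lpl, Gpihbp1, Cd36, Fabp4, Fabp5, Rbp7, Aqp7, Meox2, and Tcf15, and all 9 were found among the 15956 genes listed in the counts. The list was proposed with earlier results of these data known, so the levels of the 9 genes are a description, and the adjusted p-values are those of the test over all genes and not independent support for the choice of genes. The normal protein (NP) group received a control diet with casein as its protein, and the low-protein (LP) group received the same kind of diet with less casein. The high-fat (HF) group received a high-fat diet with normal casein, and the HF + LP group, which combined the high-fat and low-protein diets, received a high-fat diet with the reduced casein. There were 5 mice per diet with 1 library per mouse, and the title of the library of LP mouse 5 marks it as sample 2 of that animal. The labelled age was 18 months throughout, whereas the methods of the study place tissue collection at a younger age. NP and LP are called low-fat diets here, and HF and HF + LP high-fat diets, and these names are relative. By the diet composition that the study gives, the high-fat diets also held less carbohydrate, and the low-protein diets more. Differences between fat levels or protein levels therefore cannot be told apart from those of carbohydrate.

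Triglyceride-rich lipoproteins release fatty acids in the capillaries of the heart through lipoprotein lipase, which cardiomyocytes make and which endothelial cells carry to the lumen with the anchoring protein GPIHBP1. The scavenger receptor CD36 takes up fatty acids at the membrane of endothelial cells and cardiomyocytes, and the small binding proteins FABP4 and FABP5 carry them inside the endothelial cell. The transcription factors MEOX2 and TCF15 act as a pair in heart endothelium and are known to maintain the expression of such genes there, RBP7 is a retinoid-binding protein of the same fold as the FABPs that is known from endothelium and fat, and the channel AQP7 passes glycerol, the other product of lipolysis.

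The 2 genes of the list that passed the test of high against low fat given below were Rbp7 and Cd36, and the 250 bases before their RefSeq starts are shown because nuclear receptors and TCF15 are known to bear on such genes. The sequences are those of RefSeq on GRCm38.p6, whose table held starts for 4 of the 9 genes (Rbp7, Cd36, Meox2, and Aqp7). Both genes lie on the minus strand, and the windows are chr4:149454969-149455218 for Rbp7 and chr5:17835897-17836146 for Cd36, printed 5′ to 3′ as transcribed. The RefSeq start of Cd36 in that table (17835896) lies inside the GENCODE gene, whose 5′ end is at 17888801, so the window is not that of the outermost start.
Rbp7: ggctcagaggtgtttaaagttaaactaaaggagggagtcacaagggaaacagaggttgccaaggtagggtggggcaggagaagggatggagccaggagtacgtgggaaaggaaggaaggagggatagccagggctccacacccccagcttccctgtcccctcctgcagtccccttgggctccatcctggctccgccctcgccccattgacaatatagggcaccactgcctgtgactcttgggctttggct
Cd36: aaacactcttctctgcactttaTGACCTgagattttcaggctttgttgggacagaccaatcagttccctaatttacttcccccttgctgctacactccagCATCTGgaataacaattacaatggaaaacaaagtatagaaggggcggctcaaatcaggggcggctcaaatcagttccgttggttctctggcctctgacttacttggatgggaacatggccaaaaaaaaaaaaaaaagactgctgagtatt
Capitals mark matches on either strand to AGGTCA, the core of the sites of nuclear receptors such as the PPARs, and to CANNTG, the E-box of basic helix-loop-helix factors such as TCF15. The Cd36 window held 1 of each, TGACCT (the opposite strand of AGGTCA) at −228 to −223 and CATCTG at −150 to −145 from the start. The Rbp7 window held neither. Matches were not particular to called genes, since the windows of the 2 Aqp7 starts held 2 and 1 matches to AGGTCA and 2 to CANNTG each, and that of Meox2 held 1 to CANNTG and none to AGGTCA. The 2 Aqp7 windows overlap, and 1 match of each kind lies in both and is counted in each. A search for the homeodomain core TAATTA found no match in any of these 5 windows. AGGTCA was found in 14.0% of the 32851 promoter windows of the table, CANNTG in 66.2%, and TAATTA in 4.84%. A match describes the letters of the window and not a bound site, and the absence of a match says only that these letters are not in it.

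Libraries held between 12559607 and 23331907 counts, and each of the 9 genes had at least 80 raw counts in every library. Levels are given as normalized counts, counts scaled to a common library size with TMM factors. Reads came from the 3′ end of transcripts, so that counts do not grow with transcript length. Levels of different genes are still only roughly comparable, since counts also depend on how reads were assigned, and the counting program is not given. Endothelial RNA was present in all libraries, with 118 to 171 CPM (counts scaled to library size) of Pecam1 in NP and HF mice and 104 to 148 CPM in LP and HF + LP mice. Adipocyte markers (8 genes, including Adipoq, Plin1, and Ucp1) summed to 663 CPM in LP mouse 13, 197 in LP mouse 20, and 105 in HF mouse 3, and to at most 50.8 CPM in the other 17 libraries. LP mouse 13 also correlated least with the other libraries of its diet (median r 0.908, against 0.944 or more for the others), and summed atrial markers ranged from 57.5 to 14386 CPM over the 20 libraries. Fits without the 3 libraries are therefore given beside the main results that moved with them, and a result without such a fit was not necessarily unchanged. In bulk tissue, fewer cells of a type and less RNA per cell cannot be told apart.

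High-fat feeding was examined as the mean difference between high-fat and low-fat diets over both protein levels, 10 mice against 10. Rbp7 and Cd36 were higher with high fat, Fabp5 and Gpihbp1 had positive differences that did not pass the threshold, and the other 5 genes of the list had differences between −0.18 and 0.11 on the log2 scale. A call needed an adjusted p below 0.01 together with a mean normalized count above 50. With edgeR's quasi-likelihood test and Benjamini-Hochberg adjustment over 13991 genes, 2 of the 9 genes were called and both were higher, where 1% of all genes tested were called and 0.257% were called as higher. The median log2 fold change was 0.11 over the 9 genes and −0.02 over all genes tested. At an adjusted p under 0.05, 3 of the 9 genes were higher, against 1.23% of all genes, and at an unadjusted p under 0.05 it was 4, against 8.28% (12.6% of all genes were lower at that level). DESeq2 called 3 of the 9, Fabp5 being the third, and 2.44% of the 15956 genes it was fitted to, the base of its shares below. This comparison uses the same libraries as the comparisons of HF with NP and of HF + LP with LP, so the 3 are not separate evidence.

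**Figure D1:**
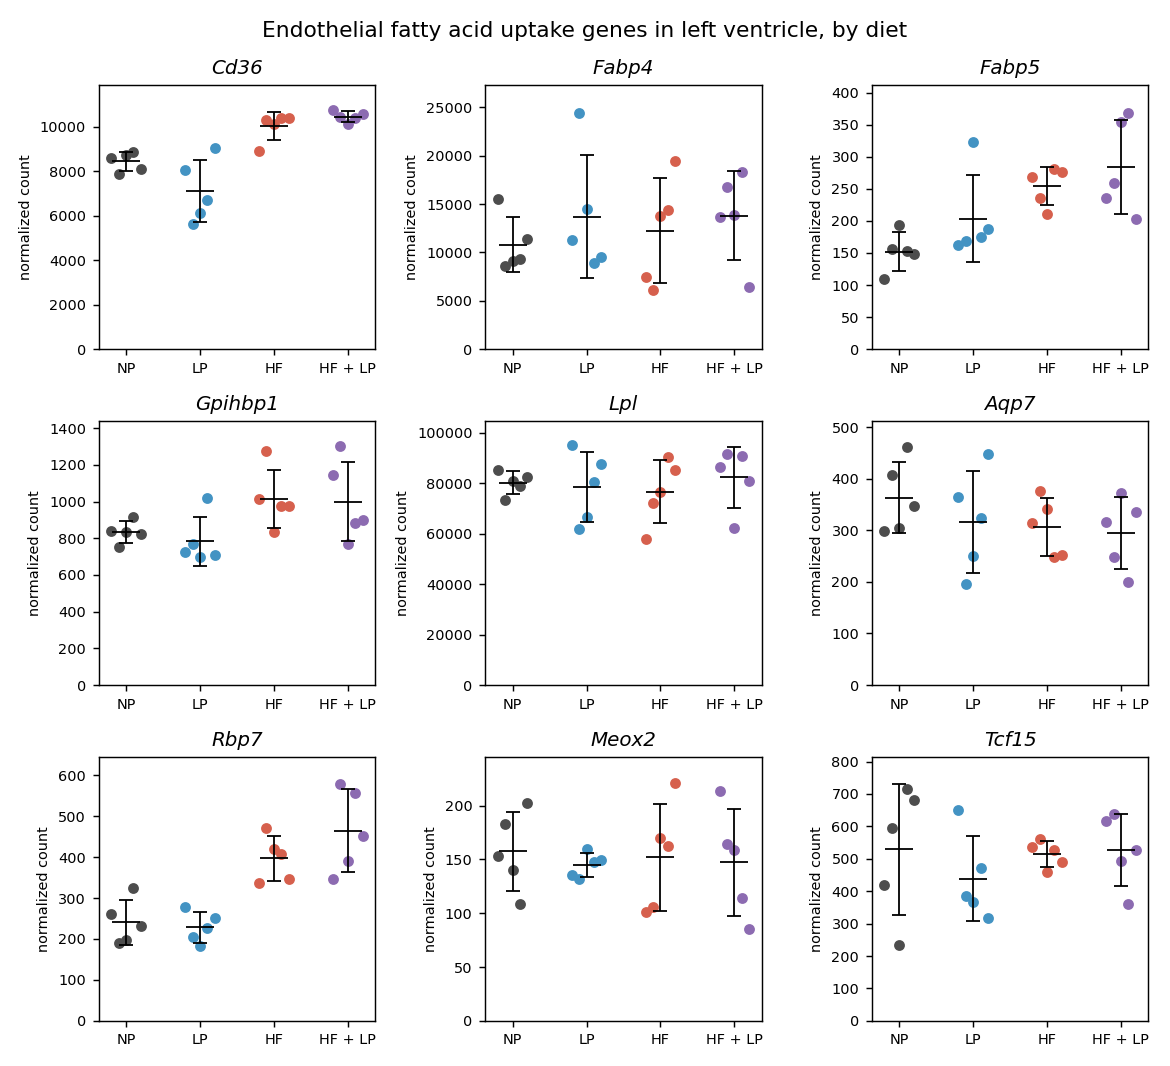
Normalized counts of the 9 genes (y axes, linear from 0) in each mouse, by diet (x axes, 5 mice each); points are mice, long bars are means, and whiskers are 1 SD. For Rbp7 the 10 mice on high-fat diets lay between 338 and 578 and the 10 on low-fat diets between 183 and 324, whereas for each of the other 8 genes the high-fat and low-fat mice overlapped.

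Rbp7 (ENSMUSG00000028996, GRCm38 chromosome 4, 149449687 to 149454978, minus strand, protein coding) encodes the retinoid-binding protein. Its normalized counts in NP mice 3, 4, 5, 6, and 8 were 197, 261, 191, 324, and 231. In LP mice 2, 5, 13, 15, and 20 they were 278, 251, 205, 226, and 183. In HF mice 1 to 5 they were 338, 472, 419, 409, and 346, and in HF + LP mice 1 to 5 they were 346, 578, 390, 558, and 452. Every mouse on a high-fat diet lay above every mouse on a low-fat diet, and the closest values were those of HF mouse 1 (338) and NP mouse 6 (324). Of the 13991 genes tested, 0.0429% separated the 10 high-fat from the 10 low-fat mice in this direction. The means were 465 ± 102 in HF + LP, 397 ± 55.6 in HF, 241 ± 54.6 in NP, and 228 ± 37.4 in LP (SD, n = 5). The 2 high-fat diets overlapped each other, as did the 2 low-fat diets, so that order holds only between fat levels. High against low fat gave a log2 fold change of 0.87 (standard error, SE, 0.12; 1.82-fold), with an adjusted p of 0.000236 from edgeR. It stayed past the threshold in all 20 fits that left out 1 mouse, at an adjusted p of 0.000163 to 0.000797, and without the 3 libraries with adipocyte markers, at 0.78 (adjusted p = 0.00242).

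Cd36 (ENSMUSG00000002944, chromosome 5, 17781690 to 17888801, minus strand, protein coding), the fatty acid receptor, had the smallest within-diet SD of the 9 on the log2 scale, pooled over the diets. In LP alone its SD was 19.7% of its mean, a larger share than for Lpl, Gpihbp1, Rbp7, and Meox2. Its normalized counts in NP mice 3, 4, 5, 6, and 8 were 8740, 8592, 7890, 8885, and 8099. In LP mice 2, 5, 13, 15, and 20 they were 8075, 9026, 5622, 6727, and 6144. In HF mice 1 to 5 they were 8916, 10284, 10121, 10377, and 10378, and in HF + LP mice 1 to 5 they were 10741, 10437, 10118, 10404, and 10578. Of the 10 mice on high-fat diets, 9 lay above every mouse on a low-fat diet, and HF mouse 1 lay below LP mouse 5. The means were 10456 ± 231 in HF + LP, 10015 ± 623 in HF, 8441 ± 427 in NP, and 7119 ± 1405 in LP (SD, n = 5), and neighbours in that order overlapped except HF and NP. The log2 fold change with high fat was 0.40 (SE 0.07, 1.32-fold), with an adjusted p of 0.0045 from edgeR. The 2 lowest values were those of LP mice 13 and 20, the libraries with the highest adipocyte markers. These libraries also had the lowest summed cardiomyocyte markers of the 20, 34863 and 35178 CPM, and LP mouse 13 had the highest atrial sum. HF mouse 1, the lowest in HF, had the second highest atrial sum (12018.5 CPM). The part of these markers was not tested separately. Without LP mice 13 and 20 and HF mouse 3 the log2 fold change was 0.31 and the adjusted p 0.018, so that the call was lost. It was also lost, at an adjusted p of 0.0101 to 0.0114, when NP mouse 5 or 8, LP mouse 15 or 20, or HF mouse 4 or 5 was left out, and with the number in the library names as covariate (0.39, adjusted p = 0.0128).

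Fabp5 (ENSMUSG00000027533, chromosome 3, 10012548 to 10016607, plus strand, protein coding) encodes a cytosolic fatty acid-binding protein, and processed copies of the gene elsewhere in the genome make its counts uncertain where reads could be split among them. Its normalized counts in NP mice 3, 4, 5, 6, and 8 were 193, 109, 157, 153, and 148. In LP mice 2, 5, 13, 15, and 20 they were 162, 187, 169, 175, and 323. In HF mice 1 to 5 they were 269, 236, 211, 281, and 277, and in HF + LP mice 1 to 5 they were 236, 258, 354, 368, and 203. Apart from LP mouse 20, every low-fat mouse lay below every high-fat mouse. The means were 284 ± 73.3 in HF + LP, 255 ± 30.2 in HF, 203 ± 67.6 in LP, and 152 ± 30 in NP (SD, n = 5), and neighbours in that order overlapped. The log2 fold change with high fat was 0.60 (SE 0.14, 1.52-fold) with an adjusted p of 0.0191 from edgeR, which did not pass the threshold. Without LP mouse 20 it was 0.72 with an adjusted p of 0.00212, and without the 3 libraries with adipocyte markers it was 0.74 with an adjusted p of 0.00377, both past the threshold.

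Gpihbp1 (ENSMUSG00000022579, chromosome 15, 75596628 to 75599481, plus strand, protein coding), the anchor of lipoprotein lipase on the capillary wall, had means of 1014 ± 160 in HF, 1000 ± 217 in HF + LP, 834 ± 57.7 in NP, and 784 ± 133 in LP (SD, n = 5). The diets overlapped, with 769 to 1301 on high-fat and 701 to 1017 on low-fat diets. High fat gave a log2 fold change of 0.31 (SE 0.10), and edgeR's adjusted p was 0.074.

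Lpl (ENSMUSG00000015568, chromosome 8, 68880491 to 68907448, plus strand, protein coding), which encodes lipoprotein lipase itself, had the highest counts of the 9 genes, and only 17 of the listed genes had more counts in total. Its mean was 79505 ± 12004 on high-fat and 79293 ± 9800 on low-fat diets (SD, n = 10). High against low fat gave a log2 fold change of −0.003 (SE 0.10, 95% interval −0.19 to 0.185), and the diet means ranged from 76599 in HF to 82410 in HF + LP. The lowest value, 58095, was in HF mouse 1 and the highest, 95172, in LP mouse 2.

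Fabp4 (ENSMUSG00000062515, chromosome 3, 10204088 to 10208576, minus strand, protein coding), a fatty acid-binding protein of endothelium, adipocytes, and macrophages, had the largest within-diet SD of the 9 on the log2 scale, pooled over the diets. Relative to the mean, Tcf15 varied more than Fabp4 in NP, and Meox2 slightly more in HF + LP. The normalized counts of Fabp4 ran from 6142 to 19492 in HF, 6412 to 18277 in HF + LP, 8653 to 15497 in NP, and 8872 to 24386 in LP. The highest value was that of LP mouse 13, and the lowest that of HF mouse 2. Its within-diet SD of 0.57 on the log2 scale was larger than that of 92.9% of 10156 genes with a mean normalized count over 50, whereas that of Cd36 (0.15) was larger than that of only 9.46%. With high fat Fabp4 had a log2 fold change of 0.09 (SE 0.23, 95% interval −0.36 to 0.54), which was 0.30 (SE 0.23, adjusted p = 0.537 from edgeR) without the 3 libraries with adipocyte markers.

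Aqp7 (ENSMUSG00000028427, chromosome 4, 41033074 to 41048139, minus strand, protein coding), the glycerol channel, had means of 306 ± 56 in HF, 295 ± 69.1 in HF + LP, 363 ± 69.6 in NP, and 316 ± 98.3 in LP (SD, n = 5), and all 4 diets overlapped. Its log2 fold change with high fat was −0.18 (SE 0.15, adjusted p = 0.525 from edgeR), and −0.34 (SE 0.14, adjusted p = 0.216) without the 3 libraries with adipocyte markers. The transcription factor Meox2 (ENSMUSG00000036144, chromosome 12, 37108540 to 37179534, plus strand, protein coding) had diet means between 145 in LP and 158 in NP, with 85.1 to 221 on high-fat and 109 to 202 on low-fat diets. Its log2 fold change with high fat was −0.01 (SE 0.16, 95% interval −0.33 to 0.31). A sense-intronic transcript, Gm48617, lies within Meox2 on the same strand and is not among the listed genes. The partner of Meox2, Tcf15 (ENSMUSG00000068079, chromosome 2, 152143561 to 152149097, plus strand, protein coding) had diet means between 439 in LP and 529 in NP, and ran from 234 to 715 in NP but only from 461 to 560 in HF. Its log2 fold change with high fat was 0.11 (SE 0.17, 95% interval −0.22 to 0.44). Neither factor of the pair passed the test in any diet comparison.

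The effect of high fat was then read at each protein level. HF compared to NP called none of the 9 genes, where 0.264% of all genes were called. At an unadjusted p under 0.05, 3 of the 9 (Fabp5, Rbp7, and Cd36) were higher and none was lower, against 5.17% of all genes higher. Rbp7 had a log2 fold change of 0.72 (SE 0.17, adjusted p = 0.036 from edgeR), which DESeq2 placed past the threshold (adjusted p = 0.00293), the only call of DESeq2 among the 9 in this comparison, where it called 0.99% of all genes. Fabp5 had 0.74 (SE 0.20, adjusted p = 0.0745) and Cd36 0.25 (SE 0.11, adjusted p = 0.307). Without the 3 libraries with adipocyte markers Fabp5 had 0.80 (adjusted p = 0.0212 from edgeR). Between HF and NP the ranges of these 3 genes did not meet, with HF above, as was the case for 2.02% of all genes. Cell type markers were read in the same comparison. EdgeR called none of the genes of the 4 lists given here, whereas DESeq2 called Myh6 of the cardiomyocyte list (−0.68, adjusted p = 0.000165) and Myh11 of the pericyte and smooth muscle list (−1.37, adjusted p = 0.00218) as lower. With edgeR Myh6 had −0.70 (adjusted p = 0.0124) and passed the threshold under several alternatives, among them the fit without the 3 libraries with adipocyte markers (0.00937), as did Myh11 (−1.39, adjusted p = 0.0341, and 0.00467 without the 3 libraries). All 8 cardiomyocyte markers had negative differences (median −0.19), 3 of them at an unadjusted p under 0.05, against 7.91% of all genes lower. Of 7 pericyte and smooth muscle markers 6 had negative differences (median −0.18), 3 of them at that level. All 8 macrophage markers had positive differences (median 0.43), 4 of them at that level, and 18 of 20 endothelial markers did (median 0.16), 2 of them at that level. Outside these 4 lists, all 5 red blood cell, 6 fibroblast, and 4 atrial markers had positive differences (medians 0.58, 0.18, and 1.31). Of these only 1, a red blood cell marker, reached that level. Adipocyte and lymphatic markers differed in both directions. Mitochondrial genes took 38.1% to 39.8% of the counts in HF and 41.3% to 47.1% in NP, without overlap. The fit with mitochondrial genes left out also called none of the 9 genes in this comparison. The part of the mitochondrial share and of the cell type markers in the differences of Rbp7, Fabp5, and Cd36 was not tested further.

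HF + LP compared to LP called 1 of the 9 genes, Rbp7, as higher, where 0.1% of all genes were called and 0.05% were called as higher. Rbp7 had a log2 fold change of 1.02 (SE 0.17, 2.03-fold, adjusted p = 0.00726 from edgeR). Its adjusted p lay near the threshold and stayed under it in 6 of the 20 fits that left out 1 mouse, with a range of 0.00713 to 0.0338, and it was 0.101 without the 3 libraries with adipocyte markers, at a log2 fold change of 0.87. Cd36 had a log2 fold change of 0.55 (SE 0.11, adjusted p = 0.0226), which was 0.38 (adjusted p = 0.243) without the 3 libraries and 0.65 (adjusted p = 0.00536) without LP mouse 5. DESeq2 called both Rbp7 and Cd36, and 0.508% of all genes. For both genes every HF + LP mouse lay above every LP mouse, as was the case for 0.929% of all genes. Fabp5 and Gpihbp1 had log2 fold changes of 0.47 and 0.34, with adjusted p of 0.26 and 0.237 from edgeR. Without the 3 libraries Fabp5 had 0.68 (adjusted p = 0.271), and Fabp4 moved from −4e-04 to 0.46 (adjusted p = 0.848). All 8 adipocyte markers were lower at an unadjusted p under 0.05 with edgeR (median −4.73), as were 1351 of all 13991 genes. No other marker list had more than 2 genes at that level. DESeq2 called Myh11, a smooth muscle marker, as lower (−1.68, adjusted p = 6.41e-05). The part of these markers was not tested.

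Protein restriction was examined within each fat level and over both. LP compared to NP called none of the 9 genes with edgeR or DESeq2, where 0% of all genes were called by edgeR and 0.0188% by DESeq2. At an unadjusted p under 0.05, Cd36 was lower (log2 fold change −0.24, SE 0.11, adjusted p = 0.656) and Fabp5 higher (0.44, SE 0.20, adjusted p = 0.681), where 7.23% of all genes reached that level. Without the 3 libraries with adipocyte markers the Cd36 difference was −0.08 and that of Fabp5 0.21 (adjusted p = 1 for both), and without LP mouse 20 alone that of Fabp5 was 0.20. The Fabp4 difference was 0.36 (SE 0.32) with all libraries and −0.11 (SE 0.34) without the 3. HF + LP compared to HF called none of the 9 genes with either tool, where 0% of all genes were called by edgeR and 0.1% by DESeq2, and none had an unadjusted p under 0.05, where 4.84% of all genes did. The log2 fold changes lay between −0.05 for Aqp7 and 0.23 for Rbp7 (SE 0.16, 95% interval −0.09 to 0.55). Over both fat levels, low protein called none of the 9 genes with either tool, with 0% of all genes called by edgeR and 0.00627% by DESeq2, and none of the 9 had an unadjusted p under 0.05 against 5.47% of all genes. The log2 fold change of Fabp5 was 0.30 (SE 0.14, unadjusted p = 0.0505), and that of Rbp7 was 0.08 (SE 0.12). Both were 0.15 without the 3 libraries, and Fabp5 had 0.17 without LP mouse 20.

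Whether the effect of fat depended on protein was tested as the interaction of the 2. None of the 9 genes was called with edgeR or DESeq2, where 0% of all genes were called by each tool, and none of the 9 had an unadjusted p under 0.05 against 7.17% of all genes. The fat effect on Rbp7 was larger at low protein by 0.30 on the log2 scale (SE 0.23, 95% interval −0.16 to 0.76), and that on Cd36 by 0.30 (SE 0.15, adjusted p = 0.702). Without the 3 libraries with adipocyte markers these values were 0.17 for Rbp7 and 0.14 for Cd36, and without NP mouse 6 that of Rbp7 was 0.17. A larger effect at low protein was thus not shown for either gene. All 8 cardiomyocyte markers had positive interaction values (median 0.33), 2 of them at an unadjusted p under 0.05 with edgeR, as had 400 of all 13991 genes. All 8 adipocyte markers had negative values (median −4.34), 6 of them at that level, as had 603 of all genes. The part of these markers in the values of Rbp7 and Cd36 was not tested.

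**Figure D2:**
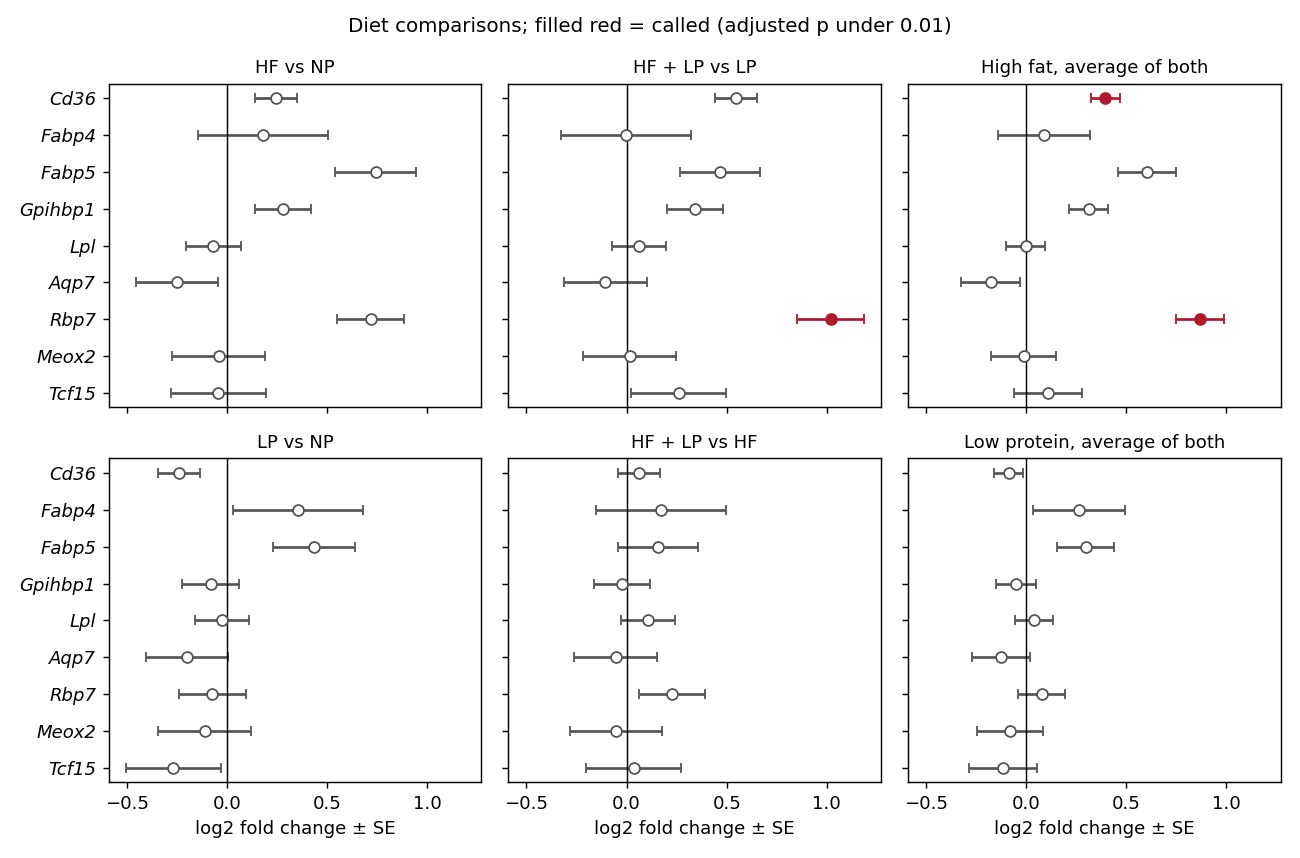
Log2 fold changes of the 9 genes (x axes) with 1 SE (whiskers) in 6 diet comparisons, 3 of fat (top row) and 3 of protein (bottom row); filled red points passed an adjusted p of 0.01. Red points appear for Rbp7 at 1.02 in HF + LP against LP, and for Rbp7 at 0.87 and Cd36 at 0.40 in high against low fat, and no point is red in the bottom row.

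The other genes of the pathway were read from 4 lists, again for high against low fat, where 8.28% of all genes were higher and 12.6% lower at an unadjusted p under 0.05. Of 16 tested genes of lipoprotein lipase activity and lipoprotein handling, none was called with edgeR or DESeq2, 2 were higher and 4 lower at an unadjusted p under 0.05, and the median log2 fold change was −0.14. Hspg2, which encodes the heparan sulfate proteoglycan perlecan, had 742 on high-fat and 1030 on low-fat diets (log2 fold change −0.48, SE 0.12, adjusted p = 0.0277 from edgeR). Angptl4, which encodes a circulating inhibitor of lipoprotein lipase and was added to the text after its values were seen, ran from 80 to 171 in HF, 88.7 to 459 in HF + LP, 17 to 242 in NP, and 39.9 to 273 in LP. Its log2 fold change was 0.94 with an SE of 0.41 (adjusted p = 0.19), and all 4 diets overlapped. Without the 3 libraries with adipocyte markers it was 1.45 (adjusted p = 0.0649).

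Of 18 genes of fatty acid uptake, binding, and activation, none was called, 6 were higher and none lower at an unadjusted p under 0.05, and the median was 0.09. Fabp3, the binding protein of cardiomyocytes, had 71898 on high-fat and 47866 on low-fat diets (log2 fold change 0.59, SE 0.13, adjusted p = 0.0142). Dbi, which encodes the acyl-CoA-binding protein, had 8051 and 6054 (0.40, SE 0.10, adjusted p = 0.0214). Both passed the threshold with DESeq2, at an adjusted p of 0.000664 and 0.00166, and Dbi also passed it with edgeR without the 3 libraries with adipocyte markers (0.48, adjusted p = 0.00192). Of 17 genes of glycerol and lipid droplet handling, none was called, 6 were higher and 4 lower at an unadjusted p under 0.05, and the median was 0.01. Mgll, the monoacylglycerol lipase that releases the last fatty acid and glycerol, had 4531 and 3331 (log2 fold change 0.43, SE 0.09, adjusted p = 0.0114 from edgeR), and DESeq2 gave 0.000234.

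Of 25 regulators of endothelial fatty acid transport, 1 was called as higher and 1 as lower, and the median was 0.04. Meox1, a homeobox gene related to Meox2, rose with high fat from 168 to 264 (log2 fold change 0.65, SE 0.12, adjusted p = 0.00441 from edgeR). The call of Meox1 was lost without the 3 libraries with adipocyte markers (0.59, adjusted p = 0.0185), with the library number as covariate (adjusted p = 0.0126), and, at an adjusted p of 0.0101 to 0.0111, without NP mouse 3 or 8, LP mouse 15, or HF mouse 4 or 5. Mlxipl, which encodes the carbohydrate-responsive factor ChREBP, fell from 312 to 195 (log2 fold change −0.69, SE 0.09, adjusted p = 0.000222), and every high-fat mouse lay below every low-fat mouse, as was the case for 0.172% of all genes. It stayed past the threshold in all 20 fits that left out 1 mouse. The share of all genes called was 1% in this comparison, and no statement is made about the lists beyond these counts.

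**Figure D3:**
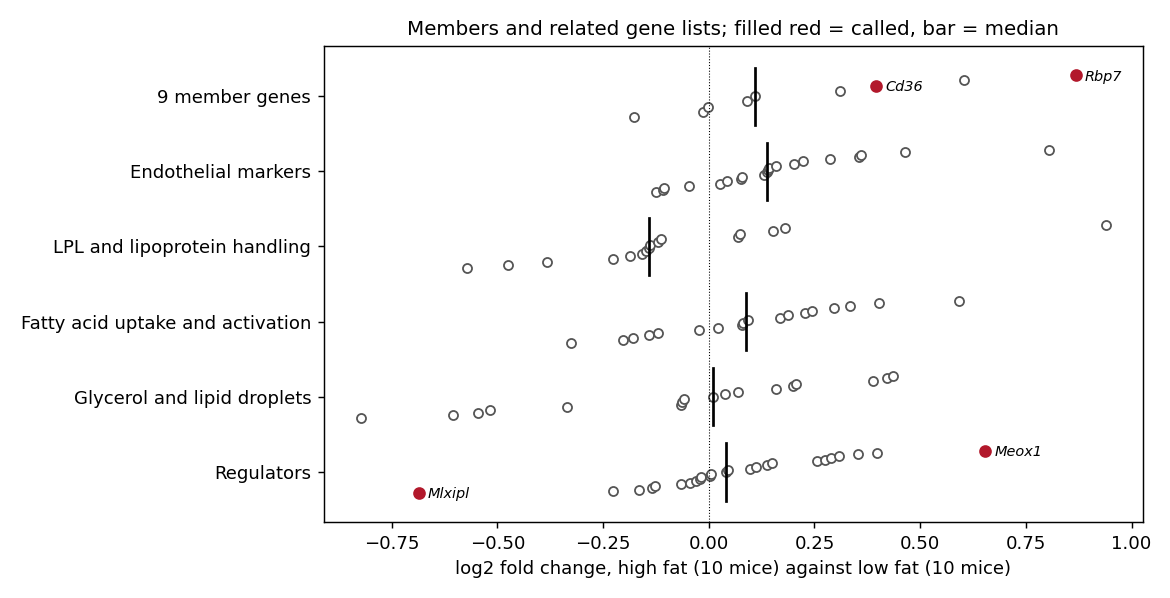
Log2 fold changes with high fat (x axis, 10 mice against 10) of the 9 genes, 20 endothelial markers, and the 4 pathway lists (rows); each point is a gene, black bars are medians, and filled red points were called. The medians lie between −0.14 and 0.14, and the called genes are Rbp7 and Cd36 of the 9, and Meox1 and Mlxipl of the regulators.

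Markers of the cell types in the tissue were set beside these values. Of 20 endothelial markers, none was called with high fat by edgeR or DESeq2, 3 were higher at an unadjusted p under 0.05 (Cldn5, Egfl7, and Icam2, against 8.28% of all genes), and the median log2 fold change was 0.14. The differences were positive for 16 and negative for 4 of these genes, the highest being 0.80 for Cldn5 (adjusted p = 0.0629 from edgeR), a tight-junction gene. Their summed level was 911 to 1147 CPM in HF, 841 to 1111 in HF + LP, 862 to 976 in NP, and 734 to 1068 in LP. None of the 8 adipocyte markers was called with high fat by either tool, 6 were lower and none higher at an unadjusted p under 0.05 (against 12.6% of all genes lower), and their summed level was 2.45 to 105 CPM in HF, 2.41 to 23.6 in HF + LP, 2.77 to 50.8 in NP, and 5.96 to 663 in LP. Of 8 macrophage markers none was called by edgeR and 1, Cd68, by DESeq2, Cd68 and Lyz2 were higher at an unadjusted p under 0.05, and the summed level was 403 to 532 CPM in HF, 302 to 415 in HF + LP, 299 to 405 in NP, and 226 to 547 in LP. Of 8 cardiomyocyte markers, Myh6 fell (log2 fold change −0.55, SE 0.09, adjusted p = 0.00252 from edgeR) and no other was called by either tool. The differences of this list were positive for 2 and negative for 6 genes, with a median of −0.03, and in HF + LP compared to LP they were positive for 6 and negative for 2 (median 0.13), unlike in HF compared to NP. Their summed level was 38681 to 48907 CPM in HF, 37631 to 54835 in HF + LP, 47505 to 56460 in NP, and 34863 to 52605 in LP. Of 7 pericyte and smooth muscle markers, Myh11 fell (−1.54, SE 0.23, adjusted p = 0.000572) and no other was called by either tool. Here 2 differences were positive and 5 negative, with a median of −0.24. None of 6 fibroblast, 4 lymphatic, 5 red blood cell, or 4 atrial markers was called by either tool, and 1 lymphatic and 1 red blood cell marker were higher at an unadjusted p under 0.05. The part of these cell types in the differences of Rbp7, Cd36, and Fabp5 was not tested, beyond the fits without the 3 libraries given above.

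**Figure D4:**
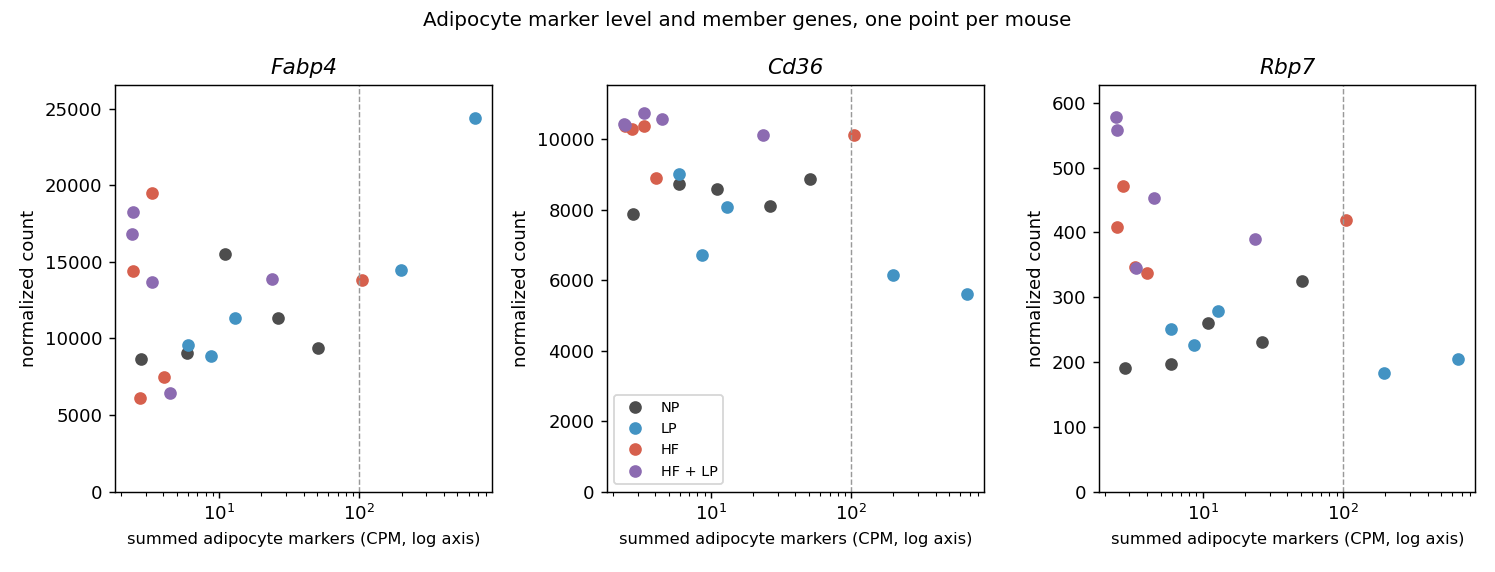
Normalized counts of Fabp4, Cd36, and Rbp7 (y axes, linear from 0) against the summed level of 8 adipocyte markers (x axes, CPM, log scale), 1 point per mouse, coloured by diet; the dashed line marks 100 CPM. LP mouse 13 at 663 CPM had the highest Fabp4 (24386) and the lowest Cd36 (5622), and the high Rbp7 values of HF + LP mice were found at 2.41 to 23.6 CPM.

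The 20 mice also differed within diets, and the 9 genes did not vary as 1 group. Among the 36 pairs of the 9 genes, Pearson's r of log2 CPM deviations from the diet means ranged from −0.705 for Fabp4 with Aqp7 to 0.711 for Cd36 with Lpl, with a median of 0.014, and was above 0.5 for 3 pairs. The other 2 of these pairs were Cd36 with Aqp7 (0.55) and Fabp4 with Meox2 (0.551). Without LP mouse 13 the values were −0.635 for Fabp4 with Aqp7, 0.65 for Cd36 with Lpl, 0.403 for Cd36 with Aqp7, and 0.65 for Fabp4 with Meox2. Rbp7 and Cd36, the genes called with high fat, had an r of 0.46 within diets, and Rbp7 and Fabp5 −0.30. With the mean of the 20 endothelial markers, r was between −0.338 for Fabp5 and 0.368 for Tcf15. With the mean of the cardiomyocyte markers it was 0.738 for Cd36, 0.633 for Lpl, and −0.666 for Fabp4, and with that of the adipocyte markers it was −0.542 for Cd36, −0.535 for Lpl, and 0.426 for Fabp4. All of these describe the same 20 libraries, which differ in depth and in markers of other tissue, and none is a test.

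Among genes with a mean normalized count over 50, those that followed each gene of the list most closely within diets were picked by the same r over the 20 mice. For Cd36 they were Pln, Bri3bp, and Asph (0.871 to 0.874), of which Pln encodes the cardiomyocyte protein phospholamban. For Lpl they were Msrb2, Fhl2, and Tacc2 (0.895 to 0.922). For Rbp7 they were Lsm6, Nek9, and Tm2d3 (0.876 to 0.894), and for Gpihbp1 they were Rnf144b, Ier3, and Lrrc10 (0.866 to 0.904). For Fabp4 they were Sdcbp, Esyt1, and Tor1a (0.949 to 0.961), and for Fabp5 they were Cnot6, Ano6, and Cdc25a (0.79 to 0.873). For Meox2 they were Prkx, Vrk2, and Snap29 (0.889 to 0.925), for Tcf15 Spag7, Ccdc25, and Hspb8 (0.845 to 0.872), and for Aqp7 Ccdc107, Vti1b, and Ankrd23 (0.895 to 0.923). None of these genes is an endothelial marker of the list, and the largest r among so many genes is high by selection.

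In library names the diet is followed by a number, 1, 2, or 3, and then by a running number. The labels leave the first number unexplained, and the difference between high and low fat was read within each number. For Cd36 it was 0.421, 0.407, and 0.388 on the log2 scale in libraries numbered 1, 2, and 3. For Rbp7 it was 0.472, 1.196, and 0.919, and for Fabp5 0.799, 0.216, and 0.721. Libraries numbered 1, 2, and 3 held 2, 2, and 6 high-fat mice and 3, 3, and 4 low-fat mice. The lowest high-fat value of Rbp7 and of Cd36 lay above the highest low-fat value within each number. For Rbp7 this followed from the separation of all mice given above, so it says nothing further about the number. Fabp5 separated in the same way in libraries numbered 1 and 3, and Gpihbp1 in those numbered 1 and 2. The share of all genes that separate in such small groups was not counted. With the number as a covariate Rbp7 remained past the threshold and Cd36 did not, as given above. For Gpihbp1 the difference was 0.47, 0.663, and 0.117, and for Fabp4 it was −0.68, −0.075, and 0.508.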

How the data were processed

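The authors prepared QuantSeq 3′ mRNA libraries from left ventricular tissue, sequenced them with 75 bp reads, and deposited raw counts per Ensembl gene and mouse, without normalization. The 20 libraries analysed here are 5 per diet, fewer than a figure legend of the study gives. They aligned with BlueBee software. The submitters' processing notes name GRCm38 and DESeq2 1.22.2. The counting program is not given in the sources used here. The deposited counts covered 15956 genes, of which the lowest had 60 counts in all, and libraries held 12559607 to 23331907 counts.

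Tests were run with edgeR 4.0.16 in R 4.3.3. After filterByExpr by diet had left 13991 genes, counts were TMM-scaled and fitted in 1 quasi-likelihood model of the 4 diets with Benjamini-Hochberg adjustment. Following the thresholds of the study, calling required an adjusted p below 0.01 with a mean normalized count above 50. Standard errors (SE) came from the F statistic, and 95% intervals are the fold change with its standard error under a normal approximation. Diets were taken from the sample titles, and mice are named by the animal number there. Each library was taken as 1 mouse, LP mouse 5 included, whose title marks it as sample 2. Log2 CPM used a prior count of 2. Symbols and coordinates are those of GENCODE M21 on GRCm38. The test was tried on simulated counts.

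The 9 genes, the 4 pathway lists, and the 9 marker lists were chosen with earlier results of these data known. Named were all 9 genes, genes of the pathway lists with an adjusted p under 0.05, markers beside a gene of the list, and for each of the 9 the 3 most similar genes. Alternatives were DESeq2 1.42.0, RLE size factors, a threshold of 0.05, no minimum of the mean, no low-count filter or a minimum of 10 counts per library, leaving out mitochondrial genes or each mouse in turn, fitting only the diets compared, and adding the library number or the animal number (as a replicate block) to the model. The fit without the 3 libraries with summed adipocyte markers above 100 CPM was chosen after seeing the data.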

Additional observations from a re-analysis of the deposited data

Results flagged for a closer look

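For each of the 9 genes and 4 diets, the distance of the highest or lowest mouse from its nearest neighbour was set against the range of the 5 mice. In 3 of 36 groups it was above the 95% critical value, and chance alone gives about 1 in 20 groups. Cd36 in HF mouse 1 had a normalized count of 8916, below the next value of 10121, with a ratio of 0.824. This mouse also had the second highest atrial markers of the 20 (12018.5 CPM, with a median of 191 in HF). Fabp5 in LP mouse 20 had 323, above the next value of 187, with a ratio of 0.845. This mouse also had the second highest adipocyte markers (197 CPM), and without it the high-fat difference of Fabp5 passed the threshold (adjusted p = 0.00212 from edgeR). Gpihbp1 in LP mouse 15 had 1017, above the next value of 768, with a ratio of 0.787. The causes were not tested.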

How the results depend on the processing

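Among the 9 genes, no called fold change changed sign under any alternative. Rbp7 with high fat over both protein levels was called in every fit, at a log2 fold change of 0.78 to 0.93. HF compared to NP called 0 of the 9, and 1 (Rbp7) at an adjusted p under 0.05 or with DESeq2. HF + LP compared to LP called 1, 2 (Rbp7 and Cd36) at an adjusted p under 0.05 or with DESeq2, and 0 with the library number as covariate, with only the diets compared, or without the 3 libraries with adipocyte markers, and 0 to 1 when 1 mouse was left out. The call of Rbp7 there was lost, at an adjusted p of 0.0101 to 0.0338, without NP mouse 3 or 8, any LP mouse, HF mouse 1, 3, 4, or 5, or HF + LP mouse 2, 4, or 5. High fat over both protein levels called 2, 1 with the library number as covariate (Cd36 at 0.0128), 3 at an adjusted p under 0.05 or with DESeq2 (with Fabp5 added), and 1 to 2 when 1 mouse was left out. Without the 3 libraries the 2 called genes were Rbp7 and Fabp5. The 4 other comparisons among the diets called 0 of the 9 genes under every alternative run. Outside the 9, genes short of the threshold with high fat passed it when 1 mouse was left out, Hspg2 without LP mouse 13 (adjusted p = 0.00684) or HF mouse 5 (0.00399), Fabp3 without LP mouse 2 or 13 or HF + LP mouse 3 (0.00839 to 0.00932), Dbi without LP mouse 13 (0.000298), and Mgll without NP mouse 6, LP mouse 2, HF mouse 3, or HF + LP mouse 3 (0.0055 to 0.0099). Mgll also passed it with RLE size factors (0.00803), a minimum of 10 counts (0.00923), or mitochondrial genes left out (0.00727), and Dbi without the 3 libraries (0.00192).

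Animal numbers belong to different mice, and the mean r of the deviations of same-numbered mice was −0.236 for HF with NP (3 numbers), −0.038 for HF + LP with HF (5), 0.178 for HF + LP with LP (2, at −0.018 and 0.375), and 0.207 for LP with NP (1). With 3 or more numbers r was not positive throughout, and the pairing was not used. With the animal number as a replicate block, HF + LP compared to LP called 0 of the 9 genes (Rbp7 0.87, adjusted p = 0.282), high fat over both protein levels called 1 (Rbp7, adjusted p = 0.0055), Cd36 had 0.28 (adjusted p = 0.183), and all genes called fell in number from 140 to 13. The interaction was then −0.03 for Rbp7 and 0.02 for Cd36. Among the called genes outside the 9, Mlxipl had an adjusted p of 0.0511, Meox1 of 0.124, and Myh6 of 0.0859. The causes of these changes were not tested. With 5 mice per diet, p-values measure the spread between these mice, and intervals are wide for Fabp4, Meox2, and Tcf15.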
